A study of Homo sapiens with 10 samples.

Results

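TH, the gene of tyrosine hydroxylase, lies on the short arm of human chromosome 11 at band 11p15.5, among genes that are known for parental imprinting. TH and 9 genes around it were followed in SW620, an established human line from a colon cancer, and in metastatic cells derived from it. In chromosome order the 10 genes are H19, IGF2, TH, ASCL2, TSSC4, KCNQ1, CDKN1C, SLC22A18 (named SLC67A1 in the current RefSeq table), PHLDA2 and NAP1L4. Each gene is represented by every row of the expression table that lists it and no other gene, which gave 98 of the 65535 rows of the table and 10 of its 4713 genes. TH was chosen by its higher level in the derivatives on these same arrays, so its values are described without a test. The other 9 genes were taken from those around TH at 11p15.5, with earlier results of these data known, and account for 83 rows. Further measured genes that lie among them, such as INS, are not counted with the 9 and are read with the wider region. The question asked was whether the TH rise extended to them.

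Imprinted genes are expressed mainly from the copy inherited from one parent. Band 11p15.5 holds a pair of imprinted domains. In one, a shared control region directs a common set of enhancers either to IGF2, a fetal growth factor that signals through the IGF1 receptor, or to H19, a long noncoding RNA that also hosts the microRNA miR-675. In the other, a control region inside KCNQ1 governs CDKN1C, an inhibitor of cyclin-dependent kinases, and PHLDA2, a restrainer of placental growth, among others. Loss of the normal control of IGF2 is well known in colorectal tumours. TH catalyses the rate-limiting step of catecholamine synthesis and is normally found in neurons and adrenal chromaffin cells, not in colon epithelium.

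The arrays fall into 3 groups. Parental SW620 cells were measured on 4 arrays. Cells recovered from liver metastases that SW620 had formed in balb/c nude mice, then expanded in culture, were measured on 3 arrays, and cells recovered in the same way from lung metastases on 3 more. All cells were grown in DMEM with serum, and the labels name no edited gene and no drug. Nude mice lack T cells but keep other host cells, and no label tells whether replicates come from different metastases or from parallel cultures. The sample titles call the replicates biological without saying what was replicated. The p-values therefore cover the spread among these arrays alone, which may be that of parallel cultures. A row is taken as a probe set for part of a gene, differences are between group means on the log2 scale, SE is their standard error in the fit, and a row or gene is called where limma's p, adjusted over all rows or all genes of the table, is under 0.05.

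No pair of arrays held the same values, and the medians of the arrays lay between 8.62 and 8.72 on the log2 scale. Parental array 4 resembled the 3 lung arrays across the table, a set of 4 arrays that no label explains. A fit with this set as a term compares the lung derivatives with parental array 4 alone and the liver derivatives with parental arrays 1 to 3, and its value is given as the set value below. The genes of the table lie almost all on chromosomes 1, 10, 11 and 12, so many genes of the lists below are not analysed here. The epithelial keratins KRT8 and KRT18 were bright on every array (means of rows from 11.50 to 12.91) and did not pass the test in either derivative. Of the 8 colon epithelial markers 3 were measured, and the third, ELF3, was lower in both derivatives. Of all genes, 3.50% were called lower in liver and 17.3% in lung derivatives.

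Promoter sequence was available for part of the genes, and for neither TH nor IGF2. The RefSeq promoter table (GRCh38.p14) holds 4 of the 10 genes, H19, TSSC4, SLC22A18 and NAP1L4, and also INS, the insulin gene that sits between IGF2 and TH. Of these, 3 promoters are printed, of a gene that rose in lung derivatives (H19), of the gene next to TH (INS) and of a gene beyond ASCL2 (TSSC4), each as 300 bases around the start, 5′ to 3′, with CG dinucleotides, the sites of DNA methylation, in capitals.
H19 promoter, chr11:2001217-2001516, minus strand: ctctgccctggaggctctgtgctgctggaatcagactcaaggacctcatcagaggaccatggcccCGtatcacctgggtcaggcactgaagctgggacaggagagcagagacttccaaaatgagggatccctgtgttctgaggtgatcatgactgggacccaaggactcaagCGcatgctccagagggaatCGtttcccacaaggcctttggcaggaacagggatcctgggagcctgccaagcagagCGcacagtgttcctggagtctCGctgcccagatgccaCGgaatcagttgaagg
INS promoter, chr11:2161160-2161459, minus strand: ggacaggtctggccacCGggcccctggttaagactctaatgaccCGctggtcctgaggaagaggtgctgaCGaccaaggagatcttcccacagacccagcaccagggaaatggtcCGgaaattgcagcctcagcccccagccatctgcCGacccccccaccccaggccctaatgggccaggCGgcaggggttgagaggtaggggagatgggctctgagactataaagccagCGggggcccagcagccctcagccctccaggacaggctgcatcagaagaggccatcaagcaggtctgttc
TSSC4 promoter, chr11:2400500-2400799, plus strand: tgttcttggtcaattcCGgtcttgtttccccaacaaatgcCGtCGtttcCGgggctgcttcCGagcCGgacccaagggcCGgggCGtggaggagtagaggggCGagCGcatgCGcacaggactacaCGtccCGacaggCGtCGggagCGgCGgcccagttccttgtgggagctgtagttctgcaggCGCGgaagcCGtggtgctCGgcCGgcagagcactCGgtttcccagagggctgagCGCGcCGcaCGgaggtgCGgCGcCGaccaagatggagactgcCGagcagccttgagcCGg
The H19 window holds 6 CG, a count higher than in 33.7% of the 35116 promoters in the table. The INS window, which also serves as the start of the INS-IGF2 readthrough transcript, holds 7, higher than in 36.8%. The TSSC4 window holds 32, higher than in 81.1%, against a median of 14 and at least 1 CG in 96% of all promoters. The letters TATAAA, searched on both strands, occur once in the INS window and in neither of the others, against 11.5% of all promoters. These counts describe the windows only, and methylation was not measured.

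The microRNA hosted by H19 is printed with its seed, bases 2 to 8, in capitals, since H19 is the noncoding member among the genes that rose. Its RefSeq positions are chr11:1996800-1996822 for the 5p arm and chr11:1996768-1996787 for the 3p arm, both on the minus strand of GRCh38.p14.
hsa-miR-675-5p: uGGUGCGGagagggcccacagug
hsa-miR-675-3p: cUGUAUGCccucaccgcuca
The arms differ in their seeds. The array rows of H19 report the host RNA, and no value of the mature microRNA is used here.

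TH was higher on every derivative array than on every parental array, and highest in the lung derivatives. As the mean of its 15 rows it read 8.26, 8.29, 8.30 and 8.41 on parental arrays 1 to 4. It read 8.95, 8.80 and 8.85 on liver arrays 1 to 3 and 9.12, 9.22 and 8.99 on lung arrays 1 to 3. The 3 groups did not overlap, with the liver arrays between the parental and the lung arrays. The mean was 0.55 higher in liver derivatives (SE 0.07, 1.47-fold) and 0.80 higher in lung derivatives (SE 0.07, 1.74-fold). Against parental array 4 alone the lung difference was 0.70. Both differences share the parental arrays.

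The rows of TH did not move alike. With the rows numbered by rising array ID, since no source used here gives their positions in the gene, rows 1 to 5 carried most of the difference. Row 3, the brightest, read 9.33, 9.51, 9.20 and 9.22 on the parental arrays. It read 11.07, 10.74 and 10.76 on the liver arrays and 11.22, 11.53 and 11.56 on the lung arrays. Every derivative array was thus brighter than the brightest parental array by more than 1 log2 unit, with differences of 1.55 in liver (SE 0.14, 2.92-fold) and 2.12 in lung derivatives (SE 0.14, 4.36-fold). Rows 1 to 5 were higher by 0.71 to 1.80 in liver and by 0.87 to 2.17 in lung derivatives. Rows 6 to 15 differed by -0.17 to 0.41 in liver and by -0.15 to 0.62 in lung derivatives.

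**Figure D1:**
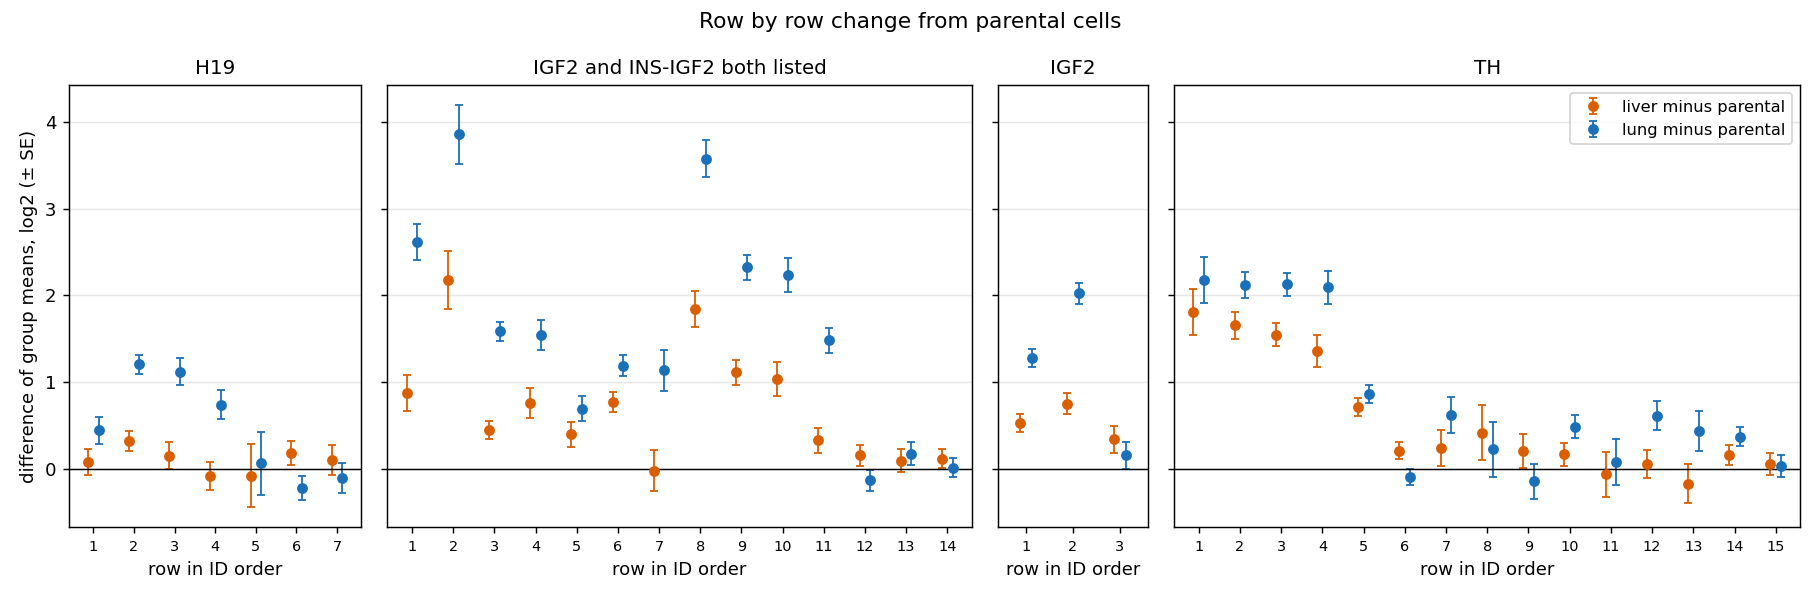
Difference from parental cells (log2, points with SE bars) for each row of H19, of IGF2 and INS-IGF2 listed together, of IGF2 alone and of TH, with rows in the order of their array IDs on the x axis; liver derivatives are orange and lung derivatives blue. In TH, rows 1 to 5 are higher by 0.71 to 1.80 in liver and 0.87 to 2.17 in lung derivatives, while rows 6 to 15 reach at most 0.62.

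IGF2 was the only neighbour called higher in both derivatives by the mean of its rows, and TH was higher in both as well. CDKN1C also lay above all parental arrays in both, but was called in lung derivatives alone. As the mean of its 3 rows IGF2 read 7.66, 7.74, 7.93 and 7.77 on the parental arrays. It read 8.36, 8.30 and 8.29 on the liver arrays and 8.83, 8.94 and 9.01 on the lung arrays. The 3 groups did not overlap and stood in the same order as for TH. The mean was 8.32 ± 0.04 (SD, n = 3) in liver and 7.78 ± 0.11 (SD, n = 4) in parental cells, a rise of 0.54 (SE 0.07, 1.45-fold, adjusted p = 0.000771). In lung derivatives it was 8.93 ± 0.09 (SD, n = 3), a rise of 1.15 (SE 0.07, 2.22-fold, adjusted p = 4.73e-06), and the set value was the same size (1.15, adjusted p = 0.000404). Leaving out any 1 array kept both calls, with adjusted p-values up to 0.00639 in liver and 4.52e-05 in lung derivatives.

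The 3 IGF2 rows differed from each other. Row 2 read 7.16, 7.25, 7.54 and 7.58 on the parental arrays, 8.11, 8.17 and 8.11 on the liver arrays and 9.46, 9.31 and 9.43 on the lung arrays. No derivative array reached down to the parental range. The row rose by 0.75 in liver (SE 0.12, 1.68-fold, adjusted p = 0.0137) and by 2.02 in lung derivatives (SE 0.12, 4.06-fold, adjusted p = 8.46e-05). Row 1 rose by 0.53 (adjusted p = 0.0364) and by 1.28 (adjusted p = 0.000494), respectively. Row 3, the brightest of the gene, differed by 0.34 in liver (adjusted p = 0.429) and by 0.16 in lung derivatives (adjusted p = 0.521), so the rise of IGF2 is not seen when the gene is represented by this row. The lung calls of rows 1 and 2 held without any 1 array. The liver call of row 2 was lost without parental array 2 or any one of the liver arrays (adjusted p up to 0.0829). The liver call of row 1 was lost without parental array 1, 2 or 3, any one of the liver arrays or lung array 2 (adjusted p up to 0.174).

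A further 14 rows list IGF2 together with INS-IGF2, the readthrough transcript from INS into IGF2, and were counted for neither gene. Their mean read 7.57, 7.58, 7.74 and 7.77 on the parental arrays. On the liver arrays it read 8.39, 8.41 and 8.35, and on the lung arrays 9.25, 9.19 and 9.32. The liver arrays lay above all parental arrays and below all lung arrays. The mean of these rows was 0.72 higher in liver (SE 0.07, adjusted p = 5.80e-05) and 1.59 higher in lung derivatives (SE 0.07, 3.01-fold, adjusted p = 1.22e-07, set value 1.49). Row 2 of the 14 read from 5.36 to 7.09 in parental cells, from 8.05 to 8.44 in liver and from 9.77 to 10.11 in lung derivatives. At 3.85 in lung derivatives (SE 0.34, 14.5-fold, adjusted p = 0.00062) it differed more than any row of the 10 genes. Row 8 was higher by 3.58 in lung derivatives (SE 0.21, 11.9-fold, adjusted p = 6.97e-05) and by 1.84 in liver derivatives (SE 0.21, adjusted p = 0.00201). Rows 1 to 11 were higher by 0.69 to 3.85 in lung derivatives, and rows 12 to 14 differed by -0.13 to 0.17.

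The sequence between IGF2 and TH holds INS, whose product is insulin, and neither INS nor the rows that list only INS-IGF2 or IGF2-AS passed the test. INS, as the mean of 3 rows, differed by 0.36 in liver (adjusted p = 0.363) and by 0.08 in lung derivatives (adjusted p = 0.782). IGF2-AS, a transcript antisense to IGF2 that the array lists as IGF2AS, differed by 0.10 (adjusted p = 0.641) and -0.12 (adjusted p = 0.322) over 7 rows. Row 1 of those listing IGF2 with INS-IGF2 carries an ID beside the IGF2-AS rows and apart from the other shared rows. That row was higher by 2.61 in lung derivatives (SE 0.21, adjusted p = 0.000391). The single row listing INS-IGF2 alone differed by 0.33 (adjusted p = 0.475) and 0.57 (adjusted p = 0.0590). A further 2 rows list INS with INS-IGF2. One of them read 7.13, 7.29, 7.56 and 9.53 on the parental arrays, 7.59, 7.49 and 7.66 on the liver arrays and 9.59, 9.67 and 9.44 on the lung arrays. Parental array 4 lay with the lung arrays, so the lung difference of 1.69 (SE 0.49, adjusted p = 0.0513) was 0.04 against that array alone. Whether these rows separate overlapping and antisense transcripts is not stated.

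H19 was higher in lung derivatives, while its liver values overlapped those of parental cells. The mean of its 7 rows read 7.69, 7.81, 8.03 and 7.86 on the parental arrays. It read 8.08, 7.94 and 7.81 on the liver arrays and 8.22, 8.49 and 8.22 on the lung arrays. Every lung array was above every parental and every liver array. The lung mean was 8.31 ± 0.16 (SD, n = 3) against 7.85 ± 0.14 (SD, n = 4), a rise of 0.46 (SE 0.10, 1.38-fold, adjusted p = 0.00782). The set value had the same size but did not pass the test (0.45, adjusted p = 0.119). The liver difference was 0.09 (SE 0.10, adjusted p = 0.706).

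As with TH, part of the H19 rows moved. Row 2 read 6.63, 6.88, 6.69 and 6.86 on the parental arrays, 7.08, 7.07 and 7.08 on the liver arrays and 7.96, 8.16 and 7.78 on the lung arrays. The lung arrays stood apart above all others. The row rose by 1.20 in lung derivatives (SE 0.11, 2.3-fold, adjusted p = 0.000995, set value 1.10, adjusted p = 0.0271). Row 3 rose by 1.12 (SE 0.15, adjusted p = 0.00464). Row 4, the brightest, rose by 0.74 (SE 0.16, adjusted p = 0.0236), a call lost without parental array 1, 2 or 3 or lung array 2 (adjusted p up to 0.0621). Against parental array 4 alone these differences were 0.76 for row 3 and 0.40 for row 4, and neither passed the test. Rows 5 to 7 differed by -0.22 to 0.06.

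**Figure D2:**
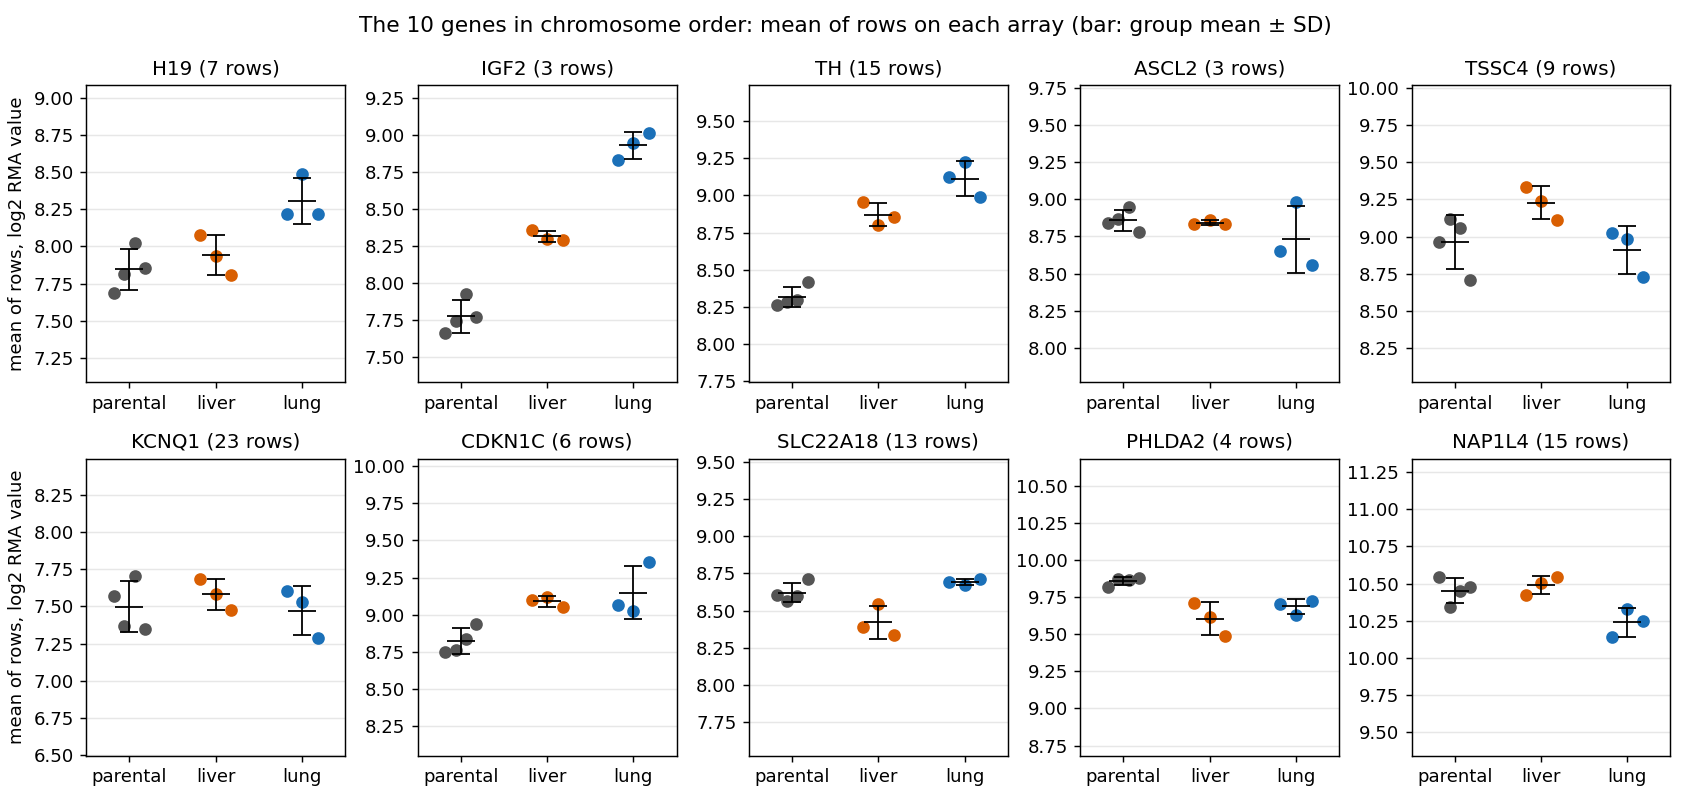
Mean of all rows of each of the 10 genes on each array (log2 RMA value, 1 point per array, parental n = 4, liver n = 3, lung n = 3; bars are group mean and SD), with genes in chromosome order and axes of equal span. H19, IGF2 and TH step up in lung derivatives, IGF2 and TH also in liver derivatives. CDKN1C lies above all parental arrays in both derivatives, with smaller differences (0.27 in liver and 0.33 in lung derivatives). ASCL2 and KCNQ1 overlap between all groups.

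ASCL2, the gene next to TH on the other side, did not follow it. ASCL2 is a transcription factor of intestinal stem cells and a target of Wnt signalling. The mean of its 3 rows read 8.84, 8.87, 8.95 and 8.78 on the parental arrays, 8.83, 8.86 and 8.83 on the liver arrays and 8.65, 8.98 and 8.56 on the lung arrays. The liver arrays lay within the parental range, and lung array 2 lay above it while the other lung arrays lay below. The differences were -0.02 in liver (SE 0.09, adjusted p = 0.956) and -0.13 in lung derivatives (SE 0.09, adjusted p = 0.314). With each array left out in turn, the lung difference ranged from -0.25 to -0.04 (limma's adjusted p from 0.0254 to 0.777). It was called only without lung array 2, and the set value was -0.05. In row 1, the brightest, all lung arrays lay below all parental arrays (-0.18, SE 0.09, adjusted p = 0.202). In row 3 lung array 2 read 8.02, against 7.25 to 7.74 on the parental arrays.

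In the KCNQ1 domain CDKN1C was the member that was higher. The mean of its 6 rows read 8.75, 8.76, 8.84 and 8.94 on the parental arrays, 9.10, 9.12 and 9.05 on the liver arrays and 9.07, 9.03 and 9.35 on the lung arrays. All derivative arrays lay above all parental arrays, though lung array 2 only just above parental array 4. The lung mean was 9.15 ± 0.18 (SD, n = 3) against 8.82 ± 0.09 (SD, n = 4), a rise of 0.33 (SE 0.08, 1.25-fold, adjusted p = 0.0163). The set value of 0.21 did not pass the test (adjusted p = 0.304). The liver difference of 0.27 (SE 0.08) missed the threshold (adjusted p = 0.0953) and passed it with the set as a term (0.31, adjusted p = 0.0499) and without lung array 3 (adjusted p = 0.0273). It also passed when the lung arrays were left out of the fit (adjusted p = 0.0410), and was largest by the median over rows (0.49, adjusted p = 0.00612), but by the brightest row it was -0.05 (adjusted p = 0.892). The lung call was lost by the brightest row (0.31, adjusted p = 0.0856) and by the median over rows (0.25, adjusted p = 0.0666). None of the 6 rows was called in either derivative by limma, against 2.20% of all rows in liver and 13.1% in lung derivatives, and at an unadjusted p under 0.05 there were 0 in liver and 2 in lung derivatives.

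PHLDA2 moved the other way. Averaged over 4 rows, it read 9.82, 9.87, 9.87 and 9.88 on the parental arrays, 9.71, 9.62 and 9.49 on the liver arrays and 9.70, 9.63 and 9.73 on the lung arrays. Every derivative array lay below every parental array. The gene fell by 0.25 in liver derivatives (SE 0.06, adjusted p = 0.0328), a call lost without parental array 1, 2 or 3 or liver array 2 or 3 (adjusted p up to 0.160). The call was also lost when the lung arrays were left out of the fit (adjusted p = 0.0508), by the brightest row (-0.19, adjusted p = 0.612) and by the median over rows (-0.28, adjusted p = 0.186). The lung difference was -0.17 (SE 0.06, adjusted p = 0.0636). Its row 3 fell by 0.49 in lung derivatives (SE 0.09, adjusted p = 0.0138), and this call held without any 1 array but not with the set as a term (-0.39, adjusted p = 0.177).

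KCNQ1, which encodes a voltage-gated potassium channel, had similar means in all groups. Averaged over 23 rows, it read 7.57, 7.37, 7.70 and 7.35 on the parental arrays, 7.68, 7.58 and 7.48 on the liver arrays and 7.60, 7.53 and 7.29 on the lung arrays. The 3 groups overlapped. The differences were 0.08 in liver (SE 0.11, adjusted p = 0.760) and -0.03 in lung derivatives (SE 0.11, adjusted p = 0.860). Of its 23 rows 2 were called in lung derivatives, both higher, against 13.1% of all rows called (5.15% higher). Row 9, the brightest, rose by 0.75 (SE 0.17, adjusted p = 0.0243, set value 0.41, adjusted p = 0.384), a call lost without parental array 2 or 3 or any one of the lung arrays (adjusted p up to 0.0656). Row 5 rose by 0.65 (adjusted p = 0.0343), a call lost without parental array 1 or 2, liver array 2, or lung array 1 or 2 (adjusted p up to 0.0957). KCNQ1OT1, a long RNA antisense to KCNQ1, lies within the gene, and whether these rows separate the strands is not stated.

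SLC22A18, an organic cation transporter-like protein, did not pass the test against parental cells. Averaged over 13 rows, it read 8.61, 8.56, 8.60 and 8.71 on the parental arrays, 8.39, 8.55 and 8.33 on the liver arrays and 8.69, 8.67 and 8.71 on the lung arrays. The liver arrays were below all parental arrays and the lung arrays at the upper end of the parental range. The differences were -0.20 in liver (SE 0.07, adjusted p = 0.120) and 0.07 in lung derivatives (SE 0.07, adjusted p = 0.442). A further 2 rows that list SLC22A18 with its antisense neighbour were counted for neither.

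TSSC4, a factor of spliceosome assembly, differed by 0.27 in liver (SE 0.11, adjusted p = 0.207) and by -0.05 in lung derivatives (SE 0.11, adjusted p = 0.748). The mean of its 9 rows read 8.96, 9.12, 9.06 and 8.71 on the parental arrays, 9.34, 9.24 and 9.11 on the liver arrays and 9.03, 8.98 and 8.73 on the lung arrays. Parental array 4 and lung array 3 were the lowest, and the groups overlapped except that the lung arrays lay below the liver arrays. One of its 9 rows was called. This row read 3.36, 3.53, 3.23 and 3.37 on the parental arrays, 5.49, 5.12 and 4.35 on the liver arrays and 5.52, 4.20 and 4.82 on the lung arrays. All of these values are below 6.98, the level under which 25% of rows lie. It rose by 1.61 in liver (adjusted p = 0.0365) and by 1.48 in lung derivatives (adjusted p = 0.0228). The liver call was lost without any one of the parental arrays, liver array 1 or 2, or lung array 3 (adjusted p up to 0.163). The lung call was lost without parental array 1, 2 or 3 or lung array 1 or 3 (adjusted p up to 0.0613).

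NAP1L4, a histone chaperone at the far end of the group, was lower in lung derivatives. The mean of its 15 rows read 10.55, 10.34, 10.45 and 10.48 on the parental arrays, 10.43, 10.51 and 10.54 on the liver arrays and 10.14, 10.33 and 10.25 on the lung arrays. The lung arrays were the lowest, lung array 2 only just below parental array 2. The gene fell by 0.21 in lung derivatives (SE 0.07, adjusted p = 0.0429) and differed by 0.04 in liver derivatives (SE 0.07, adjusted p = 0.843). The lung call was lost with the set as a term (-0.24, adjusted p = 0.204), after quantile normalization (adjusted p = 0.107), after median centring (adjusted p = 0.0993), when the liver arrays were left out of the fit (adjusted p = 0.0829) and by the brightest row (-0.19, adjusted p = 0.181). By the median over rows the sign turned (0.18, adjusted p = 0.336). It was also lost without parental array 1 or 3, any one of the liver arrays, or lung array 1 or 3 (adjusted p up to 0.160). Rows 3, 7 and 12 were called, with falls of 0.97, 0.53 and 0.88. Without parental array 1, 2 or 3 each of these 3 calls was lost. One row carries an ID that lies among those of CD58 and IGSF3 on chromosome 1, and the fall was 0.22 without it.

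**Figure D3:**
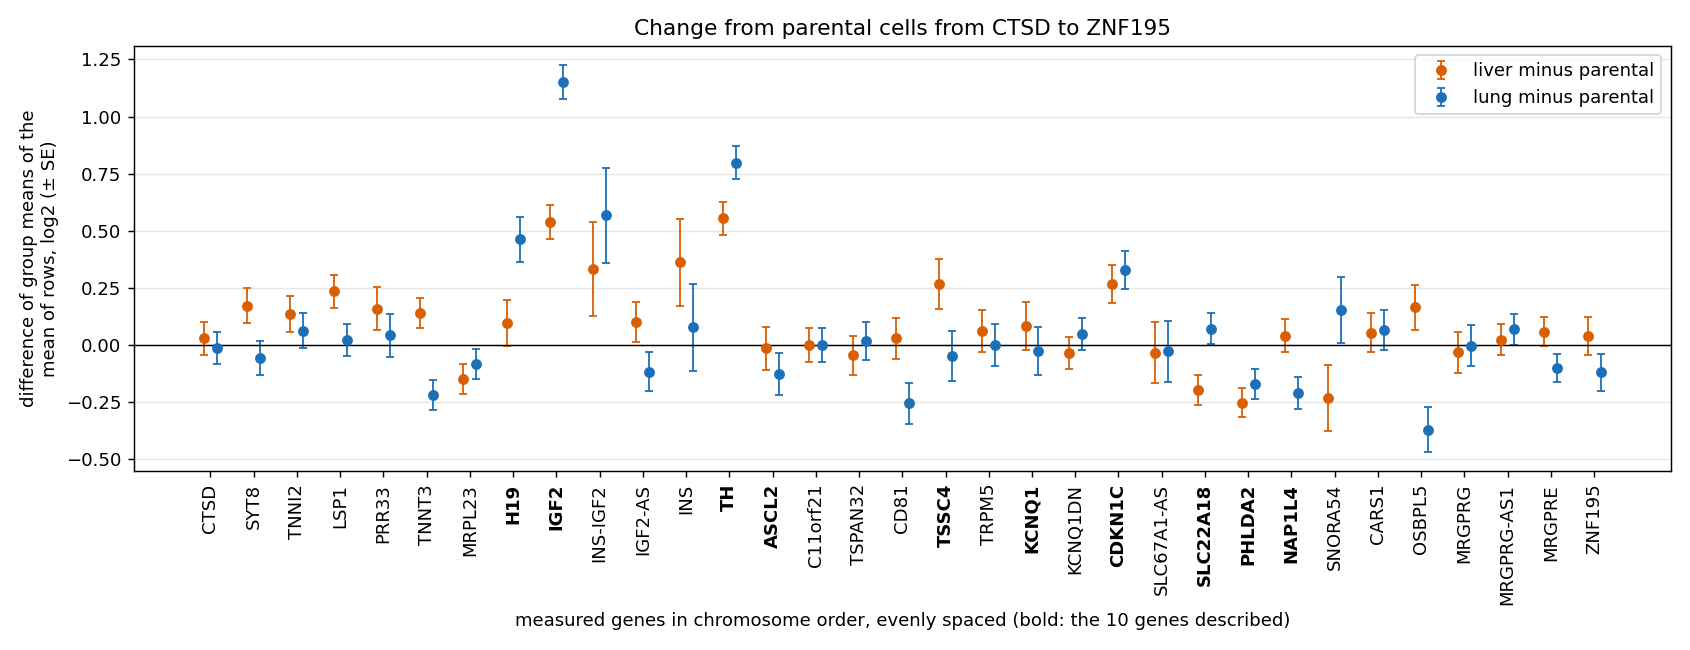
Difference from parental cells (log2 of the mean of rows, points with SE bars) for the 33 measured genes from CTSD to ZNF195 in chromosome order, evenly spaced, liver derivatives in orange and lung derivatives in blue; the 10 genes described are in bold. IGF2 and TH are highest (0.54 and 0.55 in liver, 1.15 and 0.80 in lung derivatives). Of the genes between them, INS and IGF2-AS are near 0 in lung derivatives, while INS-IGF2, a single row, is at 0.57 and not called. ASCL2 and MRPL23 outside them are near 0 in lung derivatives.

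Counted over rows, 3 of the 83 rows of the 9 neighbours were called higher and 0 lower in liver derivatives, which is 3.61%, against 2.20% of all 56949 rows tested (1.15% higher and 1.04% lower). At an unadjusted p under 0.05, limma gave 5 higher and 3 lower. The 3 rows were IGF2 rows 1 and 2 and the dim TSSC4 row. The count was 0 without parental array 2 or liver array 1 (7 and 6 rows at an unadjusted p under 0.05), and 1 without parental array 1 or 3 or liver array 2 or 3. Without liver array 2 the calls of all 3 named rows were lost, so the row counted there was a different one. In lung derivatives 8 rows were called higher and 4 lower, 14.5% of the 83, against 13.1% of all rows (5.15% higher and 7.99% lower), so the share of calls among the neighbours was near the background. IGF2 and H19 held 5 of the 8 higher rows. With the set as a term 3 rows were called, all higher and all in IGF2 and H19. The lung count was 6, 5 and 6 without parental arrays 1, 2 and 3, and 30 without parental array 4, where 16222 of all rows were called. The median row of the 9 neighbours differed by 0.03 in liver and by 0.002 in lung derivatives, against 0.01 and -0.03 over all rows.

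By the mean of rows, 2 of the 9 neighbours were called in liver derivatives, IGF2 higher and PHLDA2 lower, against 7.83% of all 4713 genes (4.33% higher and 3.50% lower). In lung derivatives 4 were called, IGF2, H19 and CDKN1C higher and NAP1L4 lower, against 30.1% of all genes (12.9% higher and 17.3% lower). With the set as a term the lung call was IGF2 alone, against 5.75% of all genes. The liver count was 1 without parental array 1, 2 or 3 or liver array 2 or 3. The 7 neighbours other than IGF2 and H19 had 73 rows, with a median difference of -0.004 in liver and -0.06 in lung derivatives.

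The 9 neighbours were also read by whether the arrays of the groups overlapped. In liver derivatives 2 genes lay above all parental arrays (IGF2 and CDKN1C), against 11.1% of all genes, and 2 below (SLC22A18 and PHLDA2), against 9.17%. In lung derivatives 3 lay above (H19, IGF2 and CDKN1C), against 12.8%, and 2 below (PHLDA2 and NAP1L4), against 19.5%. Between lung and liver derivatives 3 lay above (H19, IGF2 and SLC22A18), against 18.9%, and 2 below (TSSC4 and NAP1L4), against 27.2%.

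The wider region, from CTSD to ZNF195, holds 33 measured genes, 23 of them outside the 10. None of the 23 was called by limma in liver derivatives, and 3 had an unadjusted p under 0.05, against 7.83% of all genes called. In lung derivatives none was called higher (1 at an unadjusted p under 0.05), against 12.9% of all genes, and TNNT3, a troponin of fast skeletal muscle (-0.22, adjusted p = 0.0268, set value -0.08), and OSBPL5, an oxysterol-binding protein (-0.37, adjusted p = 0.0176, set value -0.21), were called lower, against 17.3%. MRPL23, a mitochondrial ribosomal protein gene and the measured neighbour of H19 on the far side from IGF2, differed by -0.15 (adjusted p = 0.244) and -0.08 (adjusted p = 0.357). With TH aside, 3 of the other 32 genes were called higher in lung derivatives (IGF2, H19 and CDKN1C), a share not above the 12.9% of all genes.

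The lung and liver derivatives were also compared directly. IGF2 was 0.61 higher in lung than in liver derivatives (SE 0.08, 1.53-fold, adjusted p = 0.00507), and all lung arrays lay above all liver arrays. The mean of the rows shared with INS-IGF2 was 0.87 higher (SE 0.07, adjusted p = 0.000197), and H19 0.37 higher (SE 0.11, adjusted p = 0.0358). TH was 0.24 higher. SLC22A18 was 0.27 higher (SE 0.07, adjusted p = 0.0271) and NAP1L4 0.25 lower on the log2 scale (-0.25, SE 0.08, adjusted p = 0.0394). Of all genes 19.9% were called in this comparison (8.02% higher and 11.9% lower). With the set as a term, which leaves parental array 4 as the link between the sets, the values were 0.62 for IGF2 (adjusted p = 0.176), 0.35 for H19, 0.11 for TH, 0.14 for SLC22A18 and -0.29 for NAP1L4, and only the rows shared with INS-IGF2 passed (0.73, adjusted p = 0.0498). The IGF2 call held without any 1 array (adjusted p up to 0.0372). The H19 call was lost without parental array 2, any one of the liver arrays, or lung array 1 or 2 (adjusted p up to 0.117). The SLC22A18 call was lost without any one of the liver arrays or lung array 1 or 3 (adjusted p up to 0.0951), and the NAP1L4 call without parental array 3, any one of the liver arrays, or lung array 1 or 3 (adjusted p up to 0.126). By the median over rows SLC22A18 differed by 0.08 (adjusted p = 0.573) and NAP1L4 by 0.18 (adjusted p = 0.401), and the NAP1L4 call was also lost after quantile normalization (adjusted p = 0.0864), after median centring (adjusted p = 0.0691) and by the brightest row (adjusted p = 0.0561). By the brightest row the differences were -0.18 for IGF2 (adjusted p = 0.376) and -0.19 for SLC22A18 (adjusted p = 0.138).

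Over rows, 10 of the 83 neighbour rows were higher and 4 lower in lung than in liver derivatives, 16.9% against 12.6% of all rows (5.02% higher and 7.61% lower). With the set as a term limma called 0 of the 83 rows (8 at an unadjusted p under 0.05) and 36 of all rows. The count was 8, 9 and 24 without parental arrays 2, 3 and 4, then 3, 0 and 0 without liver arrays 1, 2 and 3, and 6, 9 and 6 without lung arrays 1, 2 and 3. Without liver array 2 or 3, limma called 0 of all rows, although 14430 and 14800 had an unadjusted p under 0.05.

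Because the lung comparison depends on which parental arrays it uses, each lung mean was set against each parental array. For IGF2 the lung mean was above each of the 4 parental arrays by 0.998 to 1.27, and for TH by 0.70 to 0.85. H19 ranged from 0.28 to 0.62 and CDKN1C from 0.21 to 0.40. For TSSC4, KCNQ1 and SLC22A18 the sign depended on the parental array.

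**Figure D4:**
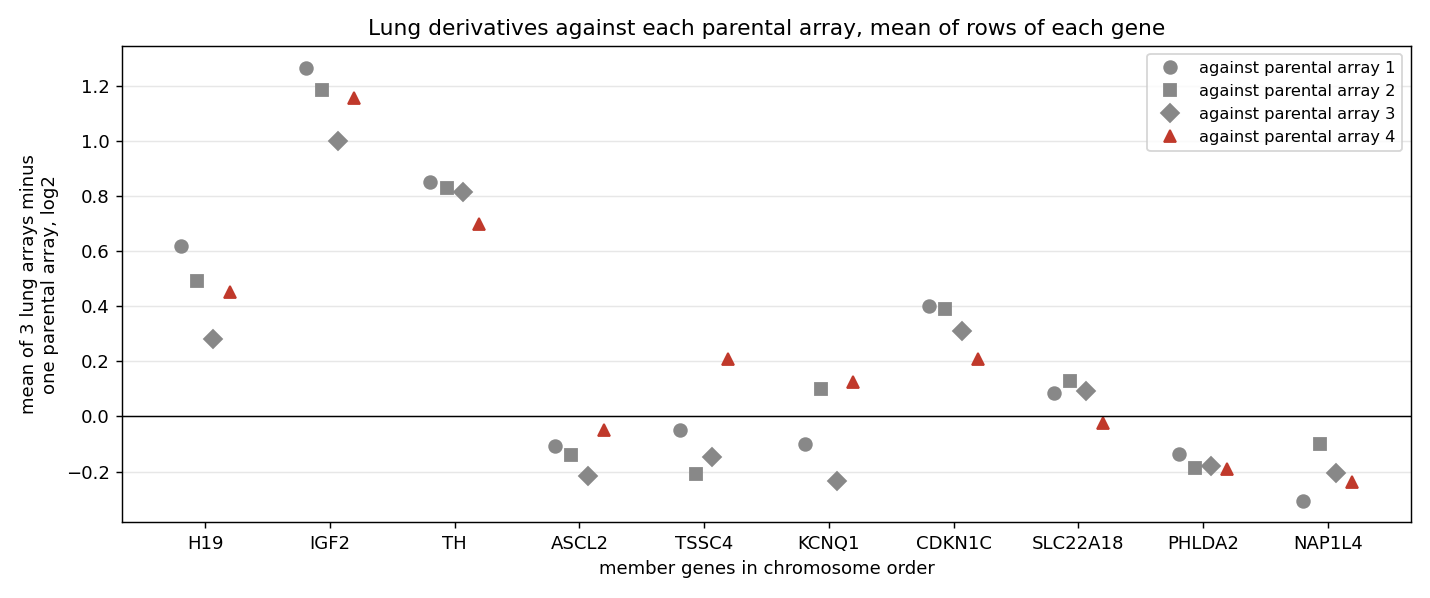
Mean of the 3 lung arrays minus each single parental array (log2 of the mean of rows) for the 10 genes in chromosome order; grey symbols are parental arrays 1 to 3 and red triangles parental array 4, the one that resembles the lung arrays. The values are positive against all 4 for H19, IGF2, TH and CDKN1C and negative against all 4 for ASCL2, PHLDA2 and NAP1L4, and they change sign for TSSC4, KCNQ1 and SLC22A18.

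The genes that act with TH were read next. Of 31 genes for catecholamine and related amine synthesis, transport, receptors and their transcription factors, 13 were measured. In liver derivatives 1 of the 13 was called, against 7.83% of all genes. In lung derivatives 2 were called, against 30.1% of all genes. NR4A1, an orphan nuclear receptor induced as an early response gene, was higher in both derivatives, by 0.54 in liver (SE 0.13, adjusted p = 0.0229) and by 0.61 in lung derivatives (SE 0.13, adjusted p = 0.00683, set value 0.30, adjusted p = 0.263). PCBD1, which regenerates the tetrahydrobiopterin cofactor that TH uses, was lower in lung derivatives (-0.19, SE 0.06, adjusted p = 0.0300, set value -0.09, adjusted p = 0.431). PTS, which makes that cofactor, differed by 0.23 in liver (adjusted p = 0.0614) and 0.15 in lung derivatives (adjusted p = 0.107). SLC18A2, the vesicular monoamine transporter, differed by -0.20 (adjusted p = 0.143) and 0.03 (adjusted p = 0.747). The other 11 were not called, and the median of the 13 differences was 0.005 in liver and 0.03 in lung derivatives, against 0.01 and -0.01 over all genes.

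Markers of other cell types were read beside these changes. Of 15 genes that mark neuroendocrine and catecholamine cells, 6 were measured. Among them NCAM1, a neural adhesion molecule, was lower in both derivatives (-1.53 and -1.71, lung set value -0.96) and SYT1, a synaptic vesicle protein, was lower in lung derivatives (-0.24, lost with the set as a term, adjusted p = 0.151), while PHOX2A, a transcription factor of noradrenergic neurons, differed by 0.03 and -0.11. The mean of the 6 lay between 7.82 and 7.92 on parental, 7.58 and 7.64 on liver and 7.47 and 7.58 on lung arrays, with lung and liver arrays overlapping, and NCAM1 had by far the largest fall of the 6. Of 8 leukocyte markers 3 were higher in liver and 6 in lung derivatives, and their mean lay between 6.42 and 6.51, 6.93 and 6.97, and 7.08 and 7.19 on the 3 groups of arrays. Those higher in both derivatives were CD5, a T-cell surface protein (1.70 and 1.70), LYZ, the lysozyme of myeloid cells and some epithelia (0.97 and 1.64), and CD4, a T-cell co-receptor (0.99 and 0.71), and their lung calls held with the set as a term. These 3 had by far the largest rises of the list in liver derivatives, where PTPRC, CD3E, CD3D, CD3G and MS4A1 differed by 0.02 to 0.11. CD3E (0.04 and 0.10) and CD3G (0.07 and 0.10) were called in neither derivative. CD3D (0.45) and MS4A1 (0.37) were higher in lung derivatives, the latter not with the set as a term. Their means in parental cells, 6.53 and 5.89, lay below 6.98, the level under which 25% of rows lie. PTPRC, the defining marker of leukocytes, averaged 5.04 in parental cells, below the level of the dimmest 25% of rows, and was 0.19 higher in lung derivatives (set value 0.22, adjusted p = 0.175). Of 6 lung epithelial markers 3 were higher in lung derivatives (SFTPA1, SFTPA2 and PDPN), with the mean of the 6 between 7.49 and 7.61 against 7.26 to 7.42 in parental cells. With the set as a term these 3 calls were lost (0.17 for SFTPA1, adjusted p = 0.525; 0.42 for SFTPA2, adjusted p = 0.209; 0.29 for PDPN, adjusted p = 0.121), and the lung arrays of SFTPA1 and SFTPA2 overlapped the parental arrays. Of 11 measured hepatocyte markers none was called by limma in liver derivatives (4 at an unadjusted p under 0.05), and 2 were lower in lung derivatives (CYP2E1 and RBP4). With the set as a term both lung calls were lost, and RBP4 was lower in liver derivatives (-0.63, adjusted p = 0.00274). Of 6 stromal markers 1 was lower in liver derivatives (LUM, -1.97), and in lung derivatives 2 were higher (DCN and C1R) and 2 lower (LUM and TAGLN), of which LUM alone kept the call with the set as a term (-1.15, adjusted p = 0.0140). For each of these lists the counts stand against 4.33% of all genes called higher and 3.50% lower in liver derivatives, and 12.9% and 17.3% in lung derivatives. The markers listed are human genes while the host was the mouse, and how far these rows detect mouse RNA is not stated. The part of host cells in the values of the 10 genes was not tested, and fewer cells that express a gene cannot be told apart from less RNA per cell in these bulk samples.

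The patterns of TH, IGF2 and H19 over the 10 arrays were compared with those of 4153 other genes with at least 3 rows, by Pearson correlation of the means of rows. The arrays share their groups and the set of 4 arrays, so the values are a description. TH was most like STAM (0.98), ADM (0.98), GPHA2 (0.98), RAB25 (0.97) and PAOX (0.97), with IGF2 at rank 20 (0.94) and H19 at rank 191 (0.78). IGF2 was most like VWA5A (0.96), GPHA2 (0.96), PLBD1 (0.95), ATG101 (0.95) and SNCG (0.95), with TH at rank 12. H19 was most like SLC2A5, C12orf50, HMCN1, CD164L2 and FAM181B (0.94 to 0.97), with IGF2 at rank 37 and TH at rank 150. CDKN1C correlated with TH at 0.78 and PHLDA2 at -0.73, while ASCL2, next to TH, correlated at -0.28.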

How the data were processed

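RNA was labelled with biotin and hybridised to Affymetrix HG1.0ST arrays, per the labels. The authors deposited log2 values, made with RMA, which subtracts background, quantile-normalizes and summarises probes; the submitters' processing notes name oligo as the package, without a version. RMA sets arrays on a common distribution, so a change in total RNA cannot be seen. The number of arrays limits the precision. The genome build and row positions of the array annotation were not given in the sources used here, and the table's 65535 rows may be incomplete.

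Genes were named from the platform annotation. Of 56949 rows with a listed gene, 54806 list 1 symbol, giving 4713 genes; 4102 of 4727 symbols were current in RefSeq and 601 were updated through a synonym.

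Rows, and separately the mean of all rows of each gene, were fitted with limma 3.58.1 (R 4.3.3), using a coefficient for each group, all 10 arrays, no covariate and no filter on dim rows. Contrasts were tested two-sided with eBayes, with Benjamini-Hochberg adjustment over all rows or all genes; a call is an adjusted p under 0.05. Shared rows entered the gene fit as one further feature. SE is that of the moderated fit. The code was tested on simulated data.

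The 10 genes, the region, the lists and the rules for naming genes were chosen with earlier results of these data known. Named were the 10 genes, called genes of the region and lists, the neighbours of TH and the 5 genes most like TH, IGF2 and H19; the other genes and the row ranges named were chosen after their values were seen. Alternatives were quantile normalization, median centring, a filter on dim rows, the array set or the replicate number as a term, only the groups compared, all rows of the table, the brightest or median row of a gene, and each array left out.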

Additional observations from a re-analysis of the deposited data

Results flagged for a closer look

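A total of 5 values differed between lung and liver derivatives by the direct test of lung against liver arrays, with limma's adjusted p under 0.05. These were IGF2 (0.61 higher in lung derivatives), the mean of the 14 rows listing IGF2 with INS-IGF2 (0.87 higher), H19 (0.37 higher), SLC22A18 (0.27 higher) and NAP1L4 (-0.25). For IGF2 and the shared rows the lung rise was larger than the liver rise in the same direction. In the fit with the set of 4 arrays as a term, the shared rows alone kept the call. No array stood apart within its parental group by Dixon's criterion for any of the 10 genes; groups of 3 arrays were not tested.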

How the results depend on the processing

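Directions and calls of IGF2 in both derivatives and of H19 in lung derivatives held under quantile normalization, median centring, the filter on dim rows and each array left out. By its brightest row IGF2 was not called (0.34 in liver, adjusted p = 0.349; 0.16 in lung, adjusted p = 0.436) and was lower in lung than in liver derivatives (-0.18), because row 3 represents it there. By the brightest row KCNQ1 was higher in lung derivatives than in parental (0.75, adjusted p = 0.0138) and liver cells (0.71, adjusted p = 0.0204), and SLC22A18 was -0.19 in lung against liver derivatives. By the median over rows, NAP1L4 changed sign in lung derivatives against parental (0.18) and liver cells (0.18).

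Of the 83 neighbour rows called in liver derivatives (3), 1 was called with the filter on dim rows and 0 to 3 with an array left out. In lung derivatives (12), 3 were called with the set as a term, 5 with only the groups compared, and 5 to 30 with an array left out. In lung against liver derivatives (14), 0 were called with the set as a term and 0 to 24 with an array left out. Of the 9 neighbour genes called in liver derivatives (2), 0 were called by the brightest row (1 at limma's unadjusted p under 0.05) and 1 to 3 with an array left out. In lung derivatives (4), 1 was called with the set as a term, 2 by the brightest row, 2 by the median over rows and 3 to 5 with an array left out. In lung against liver derivatives (4), 0 were called with the set as a term (2 at limma's unadjusted p under 0.05), 2 by the median over rows and 1 to 5 with an array left out. The set value compares 3 lung arrays with 1 parental array. Other causes were not tested.

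Replicate numbers did not pair the arrays: deviations of same-numbered arrays from their group means correlated from -0.12 to 0.04. With the replicate block, 1 neighbour row was called in liver derivatives, 23 in lung derivatives and 18 in lung against liver derivatives, and 1, 3 and 3 neighbour genes.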
